A study of Mus musculus with 6 samples.

Results

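The pyruvate dehydrogenase (PDH) genes were followed here as 1 set of 10 in bulk RNA-seq of the embryonic mouse cortex. They were chosen by their known part in the complex: the kinases Pdk1, Pdk2, Pdk3 and Pdk4, the phosphatases Pdp1 and Pdp2, and the subunits Pdha1, Pdhb, Dlat and Dld. All 10 were among the 17068 genes of the count table. The tissue was lateral cortex at embryonic day 12.5 from female embryos of the c57/bl6 strain. The 4 controls were negative for Cre: controls 1, 2 and 4 had the genotype Foxp1 fl/+ and control 3 was Foxp1 fl/fl, so each carried at least 1 floxed Foxp1 allele. The 2 libraries labelled Foxp1cKO were Foxp1 fl/fl;Emx1Cre, in which Cre is driven from Emx1 in progenitors of the dorsal telencephalon and their descendants, so that vessel, blood and ventral cells of the same tissue keep the floxed gene. The question was how transcripts of the PDH step differed between the 2 groups of embryos.

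The PDH complex sits in the mitochondrial matrix and turns pyruvate, the end product of glycolysis, into acetyl-CoA for the citric acid cycle. The kinases phosphorylate its E1 subunit and switch the complex off, which leaves more pyruvate for lactate, and the phosphatases switch it on again. The kinase genes answer to different cues in other tissues: Pdk1 and Pdk3 are known targets of the hypoxia-inducible factor HIF-1, and Pdk4 of PPAR, ERR and forkhead factors. In the early cortex, neural progenitors are known for a strongly glycolytic metabolism.

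Depth was high and similar between the groups, with 50076008 to 78346979 counts per library, so that 3 counts corresponded to 0.0381 to 0.0596 CPM, the usual scaling of a count to the size of its library. Foxp1 itself stood at 59.7, 60.8, 71.2 and 79.1 CPM in controls 1 to 4 and at 83.2 and 76.8 CPM in the libraries labelled Foxp1cKO, so its gene-wide count was not lower there (log2 fold change 0.24, SE 0.129, edgeR quasi-likelihood adjusted p = 0.468). A gene-wide count also takes reads from exons outside the floxed part and from cells without Cre, and it was therefore no check of recombination. The 3 dorsal telencephalon markers Emx1, Emx2 and Lhx2 were detected and their summed level overlapped between the groups, at 368 to 870.2 CPM in the controls and 582 to 655 CPM in the libraries labelled Foxp1cKO. Of the marker lists examined, 3 had summed levels that did not overlap between the groups. The summed level of 7 red cell genes was 995 to 3388 CPM against 3725 to 3993 CPM, that of 5 mural cell genes 68.2 to 88.3 against 111 to 116 CPM, and that of 9 genes of the mitochondrial genome 12240 to 13700 against 10800 to 12150 CPM. Gene by gene, 4 of the 7 red cell and 3 of the 5 mural genes lay above all controls, beside 11.5% of all genes. Of the 9 mitochondrial genes, 4 lay below all controls, beside 13.1%, and mt-Co2 and mt-Co3 among them were low (control means 0.356 and 0.468 CPM). The sum of 7 endothelial genes overlapped, and 1 of them was called, Flt1 (log2 fold change 1.64, edgeR adjusted p = 0.0179). No marker in the table was at 0 in all libraries. Their part in the results below was not tested, and in bulk tissue fewer cells of a type and less RNA per cell cannot be told apart.

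The stretches upstream of the 4 kinase genes are shown first because the 1 PDH gene that passed the test below was among them. They were taken from RefSeq (GRCm38.p6), run 5′ to 3′ in the direction of transcription and end at or before the start of the annotated transcript. Capitals mark the core letters bound by HIF factors, ACGTG or GCGTG, on either strand, and in Pdk2 the palindrome CACGTG, an E-box that contains ACGTG on both strands.
Pdk1 (chr2:71872974-71873223, + strand): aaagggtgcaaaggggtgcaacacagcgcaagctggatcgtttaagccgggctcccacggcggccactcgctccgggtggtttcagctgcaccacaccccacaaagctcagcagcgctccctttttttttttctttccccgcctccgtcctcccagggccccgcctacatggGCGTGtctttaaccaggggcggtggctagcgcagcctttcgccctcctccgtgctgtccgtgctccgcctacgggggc
Pdk2 (chr11:95041372-95041621, - strand): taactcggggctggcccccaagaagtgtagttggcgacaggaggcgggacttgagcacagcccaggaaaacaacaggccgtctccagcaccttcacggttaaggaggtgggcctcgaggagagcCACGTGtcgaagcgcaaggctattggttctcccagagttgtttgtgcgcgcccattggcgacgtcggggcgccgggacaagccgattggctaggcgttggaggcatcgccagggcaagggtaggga
Pdk3 (chrX:93832202-93832400, - strand): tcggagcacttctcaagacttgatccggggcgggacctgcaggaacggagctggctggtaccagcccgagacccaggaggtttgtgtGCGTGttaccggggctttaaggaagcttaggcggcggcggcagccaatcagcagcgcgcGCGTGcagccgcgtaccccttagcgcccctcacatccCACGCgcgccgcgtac
Pdk4 (chr6:5496310-5496528, - strand): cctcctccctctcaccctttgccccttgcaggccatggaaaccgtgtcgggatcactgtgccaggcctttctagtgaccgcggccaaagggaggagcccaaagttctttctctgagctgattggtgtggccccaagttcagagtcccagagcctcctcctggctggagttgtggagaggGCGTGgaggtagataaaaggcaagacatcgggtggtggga

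Counted from the RefSeq start of the window shown, Pdk1 held GCGTG at position -78 and again at -2, where it crosses the start and is not shown in full. Pdk3 held the most matches of the 4 kinases, with GCGTG at -163, -104 and, on the opposite strand, -67, and ACGTG at -53, past the end of the stretch shown. Pdk4 held 1, a GCGTG at -71, and Pdk2 held the E-box at -126. Pdk1 and Pdk2 each had another RefSeq start, not shown, whose window held no HIF core and no E-box. RefSeq windows of 300 bases were found for 9 of the 10 genes, 11 windows in all, and none was listed for Pdp1. Either HIF core was present in 7 of the 11 windows, beside 43.8% of all 32851 windows of the table, in which ACGTG alone was present in 19.6% and GCGTG in 32.4%. CACGTG was present in 2 of the 11 windows (Pdk2 and Pdp2), beside 7.15% of all. The forkhead letters GTAAACA and the ERR letters TCAAGGTCA were present in 0 of the 11, beside 3.65% and 0.423% of all windows, searched on both strands. These are matches of letters and not measured binding, and Pdk2 and Pdk4, whose transcripts did not pass the test below, held matches too.

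Pdk1 was the 1 PDH gene that passed the test, and it rose. Its kinase product acts on E1 and is the classical switch of cells from pyruvate oxidation to lactate production under low oxygen. Pdk1 (ENSMUSG00000006494.11, GRCm38 chr2:71873224-71903858, + strand) stood at 55.3, 52.1, 41.6 and 74.8 CPM in controls 1 to 4 and at 230.4 and 270.1 CPM in the libraries labelled Foxp1cKO. The lowest of the latter was thus far above the highest control, and all 8 pairs of 1 library from each group differed in the same direction, by 1.62 to 2.7 on the log2 scale. The group means were 56.0 ± 13.8 (SD, n = 4) and 250.3 ± 28.1 CPM (SD, n = 2). The log2 fold change was 2.16 (SE 0.206, 95% interval 1.68 to 2.65), or 4.47-fold (3.20 to 6.26), with an adjusted p = 0.0178 by edgeR's quasi-likelihood test over all 17068 genes. By this test 26 of 17068 genes (0.152%) were called, and 44 genes had a larger log2 fold change than Pdk1. The call needed most of the libraries: the adjusted p was 0.0956 without control 1, 0.0946 without control 2, 0.0858 without the first and 0.185 without the second library labelled Foxp1cKO, while the log2 fold change stayed between 2.03 and 2.33 in all 6 fits that left out 1 library.

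**Figure D1:**
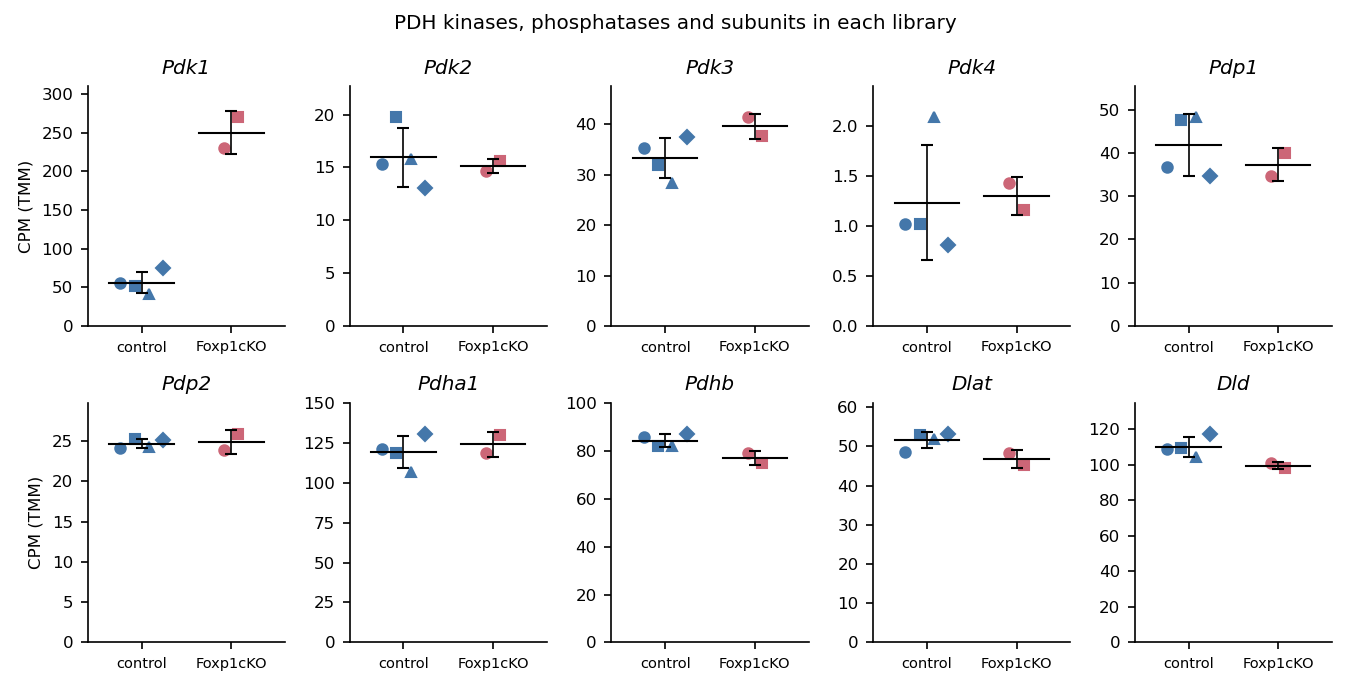
Level of each PDH gene, 1 panel per gene with its own axis from 0 in CPM, with a point per library (circle, square, triangle and diamond for replicates 1 to 4), a line at the group mean and bars of 1 SD (n = 4 and n = 2). Pdk1 is the gene whose points lie far apart, at 41.6 to 74.8 CPM in the controls and 230.4 and 270.1 CPM in the libraries labelled Foxp1cKO, and the other genes lie closer together or overlap.

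The other 3 kinases did not pass the test. Pdk3, a kinase that is little restrained by pyruvate and also a known HIF-1 target, stood at 35.4, 32.0, 28.4 and 37.6 CPM in the controls and 41.4 and 37.8 CPM in the libraries labelled Foxp1cKO. Both of the latter lay above all controls, the second by a small margin, and the log2 fold change of 0.25 (SE 0.124, 95% interval -0.04 to 0.54) did not pass the test (edgeR adjusted p = 0.441). Over all genes, both libraries labelled Foxp1cKO lay above all controls for 11.5%. Pdk2, the broadly expressed kinase, stood at 15.3, 19.8, 15.8 and 13.1 CPM in the controls and 14.7 and 15.6 CPM in the libraries labelled Foxp1cKO, inside the control range. Its log2 fold change was -0.08 (SE 0.171, 95% interval -0.48 to 0.33, edgeR adjusted p = 0.88).

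Pdk4, the kinase of fasting and fat oxidation, was the lowest of the 4. It had 63, 63, 152 and 64 counts in controls 1 to 4 and 72 and 88 counts in the libraries labelled Foxp1cKO, which is 1.02, 1.01, 2.09 and 0.813 CPM against 1.43 and 1.16 CPM. Control 3 stood apart from the other controls, and the libraries labelled Foxp1cKO lay between it and them. The log2 fold change was 0.07 (SE 0.411) with a 95% interval of -0.90 to 1.04 (edgeR adjusted p = 0.963). This interval was wide and held changes of about 0.9 log2 units in either direction.

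The make-up of the kinase transcripts therefore differed. Levels of different genes were compared per length, as RPKM, the CPM per kilobase of the union of the exons. The summed level of the 4 kinases was 26.1, 25.7, 22.0 and 28.6 RPKM in controls 1 to 4 and 50.8 and 54.7 RPKM in the libraries labelled Foxp1cKO. Pdk1 made up 27.8% ± 4.06 (SD, n = 4) of that sum in the controls and 60.8% ± 3.61 (SD, n = 2) in the libraries labelled Foxp1cKO. The share of Pdk3 went from 50.8% ± 1.83 among controls to 29.4% ± 3.39 with the Foxp1cKO label, and that of Pdk2 from 20.0% ± 4.42 to 9.06% ± 0.0778. The lower shares of Pdk2 and Pdk3 stood beside a higher sum, with their own levels as given above. Pdk4 made up 1.43% and 0.702%. These shares hold no independent test, since they follow from the Pdk1 level.

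Which kinase led in the controls depended on the length used. Pdk3 led per exon length, and Pdk1 led with 50.7% ± 5.16 per coding length. Pdk1 has 7779 bases of exons and a coding sequence of 1302 bases. On both scales Pdk1 led in the libraries labelled Foxp1cKO, where it made up 80.8% per coding length.

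**Figure D2:**
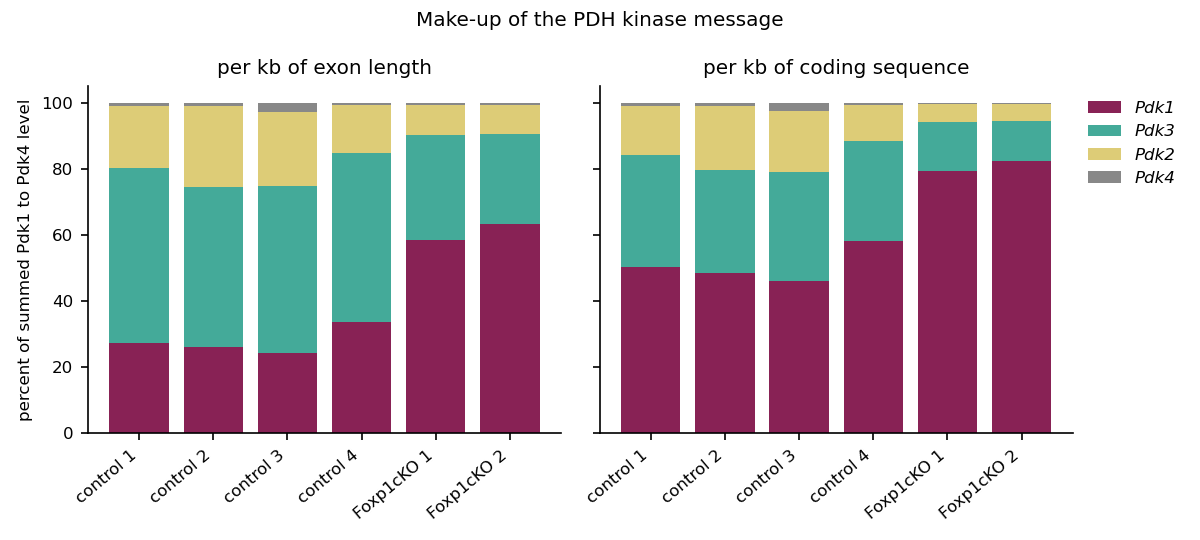
Percent of the summed kinase level taken by each of the 4 kinases, with 1 stacked bar per library, per kilobase of exons on the left and of coding sequence on the right. Per exon length the Pdk1 share is 24.3 to 33.6% in the controls and 58.3 and 63.4% in the libraries labelled Foxp1cKO.

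The phosphatases, which restore the activity of the complex, did not pass the test. Pdp1, the phosphatase that calcium stimulates, stood at 36.8, 47.7, 48.2 and 34.7 CPM in the controls and 34.6 and 40.02 CPM in the libraries labelled Foxp1cKO. The groups overlapped, with a log2 fold change of -0.16 (SE 0.164, edgeR adjusted p = 0.699). Pdp2, its partner with no calcium dependence, had the narrowest spread over the controls for its mean, at 24.1, 25.3, 24.3 and 25.1 CPM against 23.9 and 25.9 CPM. Its log2 fold change was 0.01 (SE 0.0851) with a 95% interval of -0.19 to 0.21 (edgeR adjusted p = 0.969). Set against each other per exon length, the summed kinases over the summed phosphatases came to 2.1, 1.71, 1.47 and 2.37 in the controls and to 4.28 and 4.08 in the libraries labelled Foxp1cKO. The ratio was higher in both than in every control. Like the shares, it holds no independent test, since the kinase sum follows the Pdk1 level. The phosphatase sum alone was 13.6 ± 1.59 RPKM (SD, n = 4) against 12.7 ± 1.10 RPKM (SD, n = 2).

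The 4 subunit genes showed small differences that did not pass the test. Pdha1 encodes the E1 alpha chain that carries the phosphorylation sites, and stood at 121, 118, 107 and 131 CPM in the controls and 119 and 130 CPM in the libraries labelled Foxp1cKO. The groups overlapped, and its log2 fold change was 0.06 (SE 0.096, 95% interval -0.17 to 0.29, edgeR adjusted p = 0.831). Of its exon length, 603 bases (16.1%) lie opposite exons of Map3k15 on the other strand. The library kit keeps the strand, and the strand setting of the counting is not given in the sources used here.

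The other 3 subunits lay below all controls in both libraries labelled Foxp1cKO. Pdhb, the E1 beta chain, stood at 85.8, 82.1, 81.9 and 87.1 CPM in the controls and 79.1 and 74.9 CPM in the libraries labelled Foxp1cKO. Dlat, the E2 core that carries the lipoyl arms, stood at 48.7, 52.9, 51.8 and 53.2 CPM against 48.4 and 45.2 CPM. Dld, the E3 that reoxidises these arms and also serves the sister complexes, stood at 108.8, 109.6, 104.1 and 117.4 CPM against 100.7 and 98.0 CPM. The gaps were small, with log2 fold changes of -0.13 (SE 0.0711), -0.14 (SE 0.0778) and -0.15 (SE 0.0753) and edgeR adjusted p of 0.479, 0.479 and 0.45. Over all genes, both libraries labelled Foxp1cKO lay below all controls for 13.1%, beside 3 of the 10 PDH genes.

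**Figure D3:**
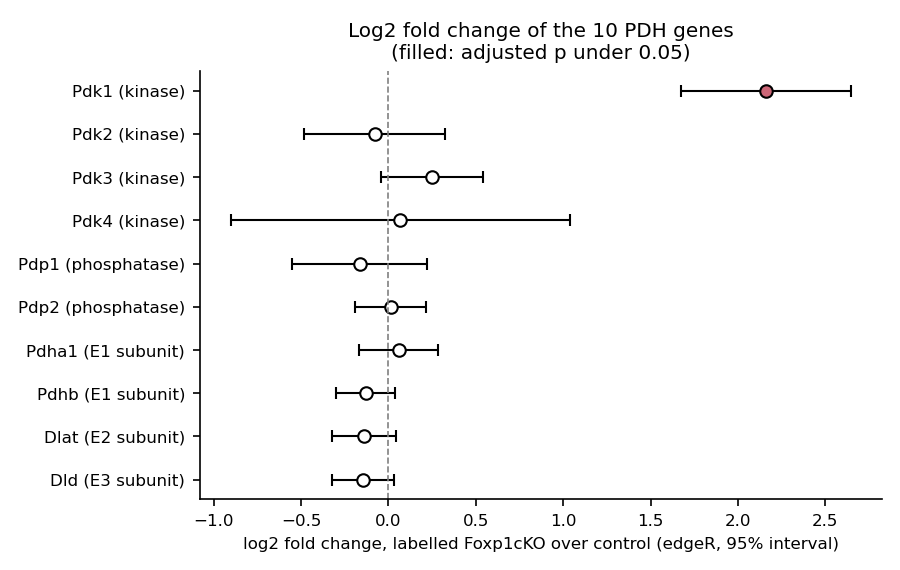
Log2 fold change of each of the 10 PDH genes, libraries labelled Foxp1cKO over controls, with its 95% interval, and filled points for an edgeR adjusted p under 0.05. Pdk1 at 2.16 is the 1 filled point, and the intervals of the other 9 genes cross 0.

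Counted as a set, 1 of the 10 genes was called, 5 log2 fold changes were above 0 and 5 below, and the median was -0.03, beside -0.0045 over all 17068 genes. At an unadjusted p under 0.05, 1 of the 10 was higher (Pdk1), where the share over all genes was 6.53%, and 0 were lower, where it was 6.5%. The DESeq2 Wald test, run as an alternative, also called Pdk1 alone among the 10, and called 2.06% of 15067 genes higher and 1.31% lower.

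Within the controls, the PDH genes followed an order of levels per exon length that ran from Pdha1 (31.9 ± 2.61 RPKM) and Dld (29.9 ± 1.49), whose ranges overlapped, over Pdhb (21.8 ± 0.683), Pdk3 (13.0 ± 1.56), Dlat (10.6 ± 0.42), Pdp1 (9.28 ± 1.58), Pdk1 (7.19 ± 1.78), Pdk2 (5.05 ± 0.879) and Pdp2 (4.34 ± 0.101) to Pdk4 (0.351 ± 0.164, all SD, n = 4). Neighbours from Dlat to Pdp2 overlapped in range and were not separated by their spread. Pdk1 stood 7th in this order and 2nd in the libraries labelled Foxp1cKO, where its mean of 32.2 RPKM lay next to the 33.2 RPKM of Pdha1. Per coding length Pdk1 stood 4th among controls, and with the Foxp1cKO label its 177 and 207.4 RPKM lay above the 101.3 and 110.9 RPKM of Pdha1. The kinases summed to 0.769 to 0.819 of the Pdha1 level in the controls and to 1.6 and 1.58 of it in the libraries labelled Foxp1cKO, per exon length. That ratio also follows the Pdk1 level. The mean ratio to Pdha1 was 0.686 ± 0.0405 against 0.602 ± 0.0615 for Pdhb, whose single values met at 0.645, and 0.937 ± 0.0363 against 0.814 ± 0.0672 for Dld, with no test made.

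The controls themselves were not alike, and the PDH genes shared part of that spread. From high to low, Pdk1 ran through controls 4, 1, 2 and 3, and Pdk3, Pdha1 and Pdhb ran through them in the same order. Pdp1 ran in the opposite order. The summed dorsal telencephalon markers followed the order of Pdk1 and the summed neuron markers that of Pdp1, with 1796 CPM of neuron markers in control 4 and 3634 CPM in control 3. Of 13855 genes with a mean of at least 1 CPM, 17.1% had the order of Pdk1 and 15.3% the opposite order. The neuron sum of the libraries labelled Foxp1cKO, 2434 and 2653 CPM, lay inside the control range. Control 4 had a red cell sum of 3388 CPM, close to the 3725 and 3993 CPM of the libraries labelled Foxp1cKO, and a Pdk1 level of 74.8 CPM. The part of these markers in the Pdk1 difference was not tested.

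Control 3 was the 1 control with the Foxp1 fl/fl genotype. It lay below the Foxp1 fl/+ controls for 5 of the 10 PDH genes (Pdk1, Pdk3, Pdha1, Pdhb and Dld), above them for Pdk4 and Pdp1, and inside their range for 3. The full share of all genes with control 3 lowest or highest was not counted. The order of Pdk1 alone, with control 3 lowest, held for 17.1% of 13855 genes, and its reverse for 15.3%. These counts are therefore no trait of the PDH genes. With 1 such embryo, genotype and library cannot be told apart. Without it the log2 fold change of Pdk1 was 2.03 (edgeR adjusted p = 0.0151) and that of Pdha1 was -0.0039.

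**Figure D4:**
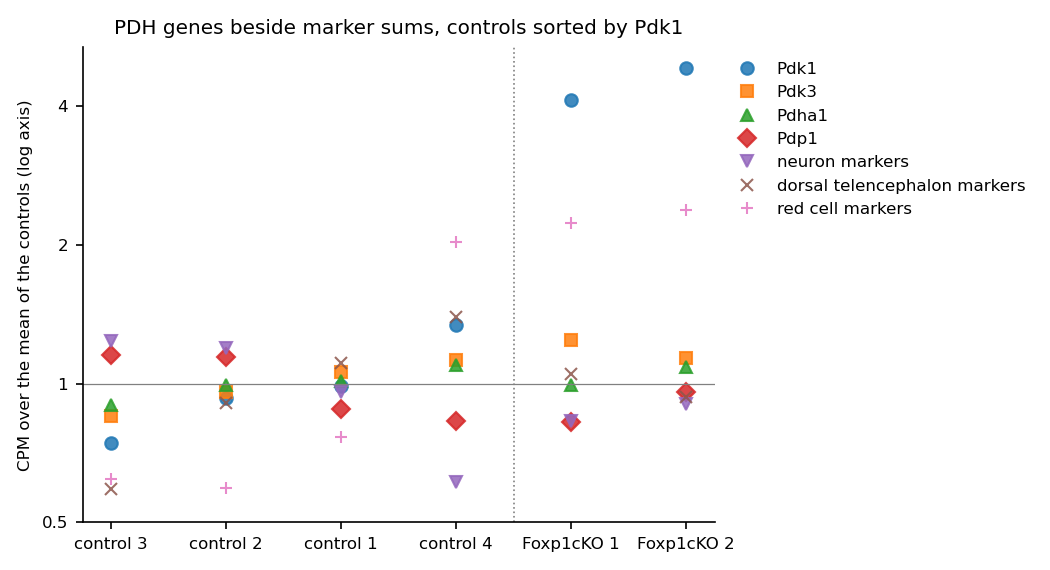
Level of Pdk1, Pdk3, Pdha1 and Pdp1 and summed level of the neuron, dorsal telencephalon and red cell markers in each library, divided by the mean of the controls, on a log axis with the controls sorted by Pdk1. Pdp1 and the neuron markers are high where Pdk1 is low among the controls, and Pdk1 is the quantity farthest above 1 in both libraries labelled Foxp1cKO.

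The genes whose log2 CPM was most like that of Pdk1 over the 6 libraries were Pfkl (Pearson r = 0.9992), Asph (0.996), Aldoa (0.9954), Ndufa4l2 (0.9952) and Bnip3 (0.9951), out of 13854 genes. Pfkl and Aldoa encode phosphofructokinase and aldolase of glycolysis, Bnip3 a mitophagy receptor, Ndufa4l2 a mitochondrial protein induced by hypoxia, and Asph an aspartyl hydroxylase. Because the 6 points hold both groups, a high r here also reports the gap between them, and it is given as a description. Pfkl stood at 106 to 143 CPM in the controls and 286 and 310.2 CPM in the libraries labelled Foxp1cKO, and Bnip3 at 20.2 to 29.9 CPM against 124 and 151 CPM. Asph was like Pdk1 in its pattern with a much smaller range, at 50.7 to 56.3 CPM against 66.6 and 70.5 CPM. Of the other PDH genes, Pdk3 was the most like Pdk1 (r = 0.799), Pdha1 had r = 0.511, and Dlat (-0.769) and Pdhb (-0.747) ran against it. Hif1a, which encodes the regulated HIF-1 subunit, had r = 0.423. Among the subunits, Pdhb and Dld moved together (r = 0.915), as did Dlat and Dld (r = 0.798).

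Around the PDH step, 57 genes in 6 lists were examined, of which 55 were in the table. By edgeR 0 of the 55 were called, beside 0.152% of all genes. At an unadjusted p under 0.05, 8 were higher and 3 lower, beside 6.53% and 6.5% of all genes, which are also the shares to set beside the counts of each list below. The median log2 fold change was -0.0052. The DESeq2 Wald test called 3 of them, Ldha and Foxo3 higher and Dlst lower, beside 2.06% of 15067 genes higher and 1.31% lower. In simulated counts a larger share of the DESeq2 calls fell on unchanged genes. There DESeq2 called 225 genes, 176 of them changed, and edgeR called 159, 149 of them changed. Both libraries labelled Foxp1cKO lay above all controls for 12 of the 55 and below them for 8, beside 11.5% and 13.1% of all genes.

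The largest difference was on the pyruvate side. Ldha encodes the lactate dehydrogenase subunit that favours lactate production, and stood at 253 to 542 CPM in the controls and 917 and 1072 CPM in the libraries labelled Foxp1cKO. These did not overlap, with a log2 fold change of 1.36 (SE 0.262, edgeR adjusted p = 0.196, DESeq2 adjusted p = 9.29e-05), and without control 4 edgeR gave 1.57 with an adjusted p = 0.0444. Mpc1 and Mpc2, the carrier that brings pyruvate into mitochondria, had log2 fold changes of 0.02 and -0.20. Of the 12 genes of pyruvate entry and use, 2 were higher at an unadjusted p under 0.05 (6.53% of all genes) and 0 lower (6.5%). These 2 were Ldha and Pkm, and Pkm had a log2 fold change of 0.53 (SE 0.171, edgeR adjusted p = 0.297). Pkm stood at 987.5 to 1502 CPM in the controls and 1611 and 1897 CPM in the libraries labelled Foxp1cKO. Me3, a mitochondrial malic enzyme, had the second highest log2 fold change at 1.10 (SE 0.516), with 1 library labelled Foxp1cKO inside the control range. Its level was low, at 0.517 to 1.29 CPM in the controls and 0.835 and 2.78 CPM in the libraries labelled Foxp1cKO. The lowest values were -0.25 for the alanine transaminase Gpt and -0.23 for the malic enzyme Me1.

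The remaining parts of the complex lay slightly lower. Pdhx, the protein that ties E3 to the core, had a log2 fold change of -0.12, and Pdpr, the regulatory subunit of the phosphatase, one of -0.32 (unadjusted p = 0.0116, edgeR adjusted p = 0.286). Both lay below all controls in both libraries labelled Foxp1cKO, as 13.1% of all genes did.

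The lipoyl and thiamine cofactors of the complex are supplied by a list of 13 genes, of which 12 were in the table. Of these, 1 was higher and 0 lower at an unadjusted p under 0.05 (6.53% and 6.5% of all genes), with a median of -0.08. The values ran from 1.00 (SE 0.311) for the thiamine transporter Slc19a3 and 0.18 for Lipt1 down to -0.22 for Cbr4 and -0.33 for Lipt2. Slc19a3 was low, at 0.274 to 0.452 CPM in the controls and 0.596 and 0.804 CPM in the libraries labelled Foxp1cKO. Of 12 genes of the sister complexes, which share the design of PDH, 2 were higher and 2 lower at that threshold, beside the same shares of all genes, with a median of -0.02. The values ran from 0.34 for Ppm1k, the phosphatase of the branched-chain complex, and 0.29 for Dhtkd1 down to -0.29 for Dlst, the E2 of the 2-oxoglutarate complex (DESeq2 adjusted p = 0.0386), and -0.41 for Gcsh.

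Of 6 genes of acetyl-CoA use, 0 were higher and 0 lower at an unadjusted p under 0.05 by edgeR (6.53% and 6.5% of all genes), DESeq2 called 0 of them, and the median was 0.02. The values ran from 0.26 for Acss1 and 0.15 for Acss2, which make acetyl-CoA from acetate, down to -0.14 for the citrate synthase Cs and -0.21 for Acat1.

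Of 12 known regulators of the kinase genes, 11 were in the table, 3 of them higher and 0 lower at an unadjusted p under 0.05 (6.53% and 6.5% of all genes), with a median of 0.08. Foxo3, a forkhead factor that acts on Pdk4 in other tissues, stood at 37.3 to 46.8 CPM in the controls and 56.0 and 62.7 CPM in the libraries labelled Foxp1cKO. Its log2 fold change was 0.52 (SE 0.106, edgeR adjusted p = 0.225, DESeq2 adjusted p = 0.00635). Ppargc1a, a coactivator of mitochondrial genes, followed with 0.46, and the lowest values were -0.06 for Foxo1 and -0.12 for Esrra. Hif1a stood at 56.5 to 65.6 CPM against 59.8 and 66.8 CPM, with a log2 fold change of 0.06 (SE 0.0933, 95% interval -0.16 to 0.28).

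**Figure D5:**
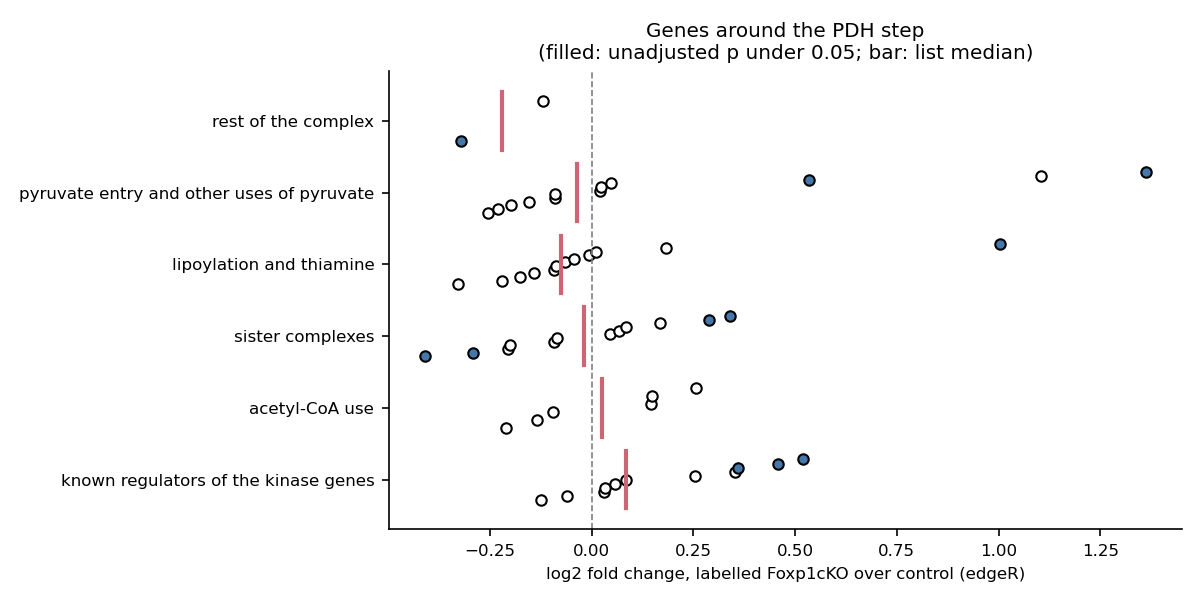
Log2 fold change of each gene in the 6 lists around the PDH step, with 1 row per list, filled points for an unadjusted edgeR p under 0.05 and a bar at each list's median (heights within a row only keep points apart). Ldha at 1.36, Me3 at 1.10 and Slc19a3 at 1.00 lie to the right of the rest, and the list medians lie between -0.22 and 0.08. Me3 and Slc19a3 were low, with control means of 0.845 and 0.350 CPM.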

How the data were processed

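Bulk RNA-seq of 6 libraries was taken as the gene count table deposited by the authors, who mapped stranded reads to mm10 with STAR, counted with HTSeq 0.9.1 and kept 17068 genes after a filter on low counts. Deposited counts were used unchanged. The authors also deposited variance-stabilised values on a log2-like scale, made from these counts with DESeq2 1.30.1, which served the limma alternative. Versioned Ensembl IDs were matched to GENCODE M21 symbols (17047 of 17068). Totals were 50076008 to 78346979 counts per library. Groups came from the GEO labels.

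Libraries were compared with edgeR 4.0.16 (TMM, estimateDisp, glmQLFit, glmQLFTest, group alone; R 4.3.3) over all genes with Benjamini-Hochberg adjustment at 0.05. The study's model also held litter, which the labels used here do not give, so no litter term was fitted. The part of litter in the group differences was not tested. The p-values set the group difference against the spread of these libraries within their groups. CPM used TMM library sizes, log2 CPM a prior count of 2. RPKM used the union of exons. The fits were tested on simulated counts of 4 against 2 libraries, with 200 of 17068 genes changed. There edgeR called 159 genes (149 of them changed), DESeq2 225 (176 changed) and limma 162 (149 changed). Alternatives were DESeq2 1.42.0, limma 3.58.1 on those values, a robust fit, DESeq2's size factors, total counts, a filter of 1 CPM in 2 libraries, a replicate block, leaving out each library, and other gene lengths.

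All 10 PDH genes are named, with the 2 highest and 2 lowest genes of each list, the 5 genes most like Pdk1, and Foxp1, Hif1a, Mpc1, Mpc2 and Pkm. Some marker genes are named as well. Hsd17b8, Pparg, Sox2 and Tubb3 were not analysed here, and 2 other listed genes are not reported here. None of these entered a list count or sum. The members and lists were chosen with earlier results of these data known.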

Additional observations from a re-analysis of the deposited data

Results flagged for a closer look

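Pdk4 in control 3 stood apart from the other controls, at 2.09 CPM (152 counts) beside 0.813 to 1.02 CPM (63 to 64 counts) in the other 3. Its gap to the nearest control, as a share of the range of the 4, was 0.839, above Dixon's 95% critical value for 4 samples, which chance passes in about 1 in 20 groups. Each of the 10 PDH genes was looked at in this way, so a flag somewhere among them is more likely than that rate. Control 3 was the 1 control with the genotype Foxp1 fl/fl. Without it the log2 fold change of Pdk4 was 0.43, with an edgeR adjusted p = 0.434.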

How the results depend on the processing

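Pdk1 rose in all 13 alternatives, with log2 fold changes of 2.03 to 2.33 and adjusted p from 8.4e-19 to 0.185. It stayed past the threshold in 8 of them. PDH genes past the threshold ranged from 0 to 1 over the fits without 1 library, with 0 without control 1, control 2, or either library labelled Foxp1cKO, the 4 fits in which 6, 2, 9 and 3 genes passed over the whole table. With the replicate block, 0 PDH genes and 0 of 17068 genes passed (3027 at an unadjusted p under 0.05). Pdk1 then had a log2 fold change of 2.22 (edgeR adjusted p = 0.0709). Replicates 3 and 4 were controls only. The group difference in that fit thus rests on controls 1 and 2 and the 2 libraries labelled Foxp1cKO. After subtraction of each group's mean, control and Foxp1cKO replicates 1 correlated at -0.198 and replicates 2 at 0.0157. Centred in this way, the 2 libraries labelled Foxp1cKO are mirror images of each other. The 2 values are therefore not separate checks, and whether the numbers pair the libraries was not tested. Over all genes, 26 passed in the reported fit, 507 with DESeq2, 20 without control 3 and 96 without control 4. Pathway genes past the threshold were 3 with DESeq2, and 0 to 1 without 1 library (Ldha, without control 4).

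Signs turned for genes near 0 on leaving out a library, where Pdk2 ranged from -0.163 to 0.04, Pdk4 from -0.0904 to 0.434, Pdp2 from -0.066 to 0.0701 and Pdha1 from -0.0241 to 0.122. The cause was not tested. Pdk3, Pdp1, Pdhb, Dlat and Dld kept their sign in all 13. The Pdk1 share was 50.7% in controls and 80.8% in the libraries labelled Foxp1cKO per coding length, and 52% and 81.6% without length, and the kinase to phosphatase ratio in the latter was 6.52 per coding length. Of the 5 genes most like Pdk1, 5 stayed with a prior count of 0.5 and 4 among genes of at least 10 CPM. With 4 libraries against 2, a 2-sided exact rank test of a single gene cannot go below p = 0.133. Pdk4 had the fewest counts of the 10 genes, 63 to 152.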
